A study of Mus musculus with 12 samples.

Results

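The genes described here are 9 genes of presynaptic terminals and growing axons, Sncb, Gap43, Gad1, Gad2, Syp, Syt1, Snap25, Nptx1 and Thy1, out of 55401 genes listed in each of the 2 deposited tables. They were picked by name with their values in these samples already known, so their values are given as a description and without a p-value. The cells were adult neural stem/progenitor cells (aNSPCs) taken from the forebrain of C57BL/6 mice 8 to 10 weeks old and expanded in culture, and the RNA is bulk RNA of whole cultures. There were 4 groups of 3 samples, 12 in all: aNSPCs under proliferating conditions without NAD+ (Ctrl) or with 1 mM NAD+, and aNSPCs under differentiation conditions, that is with 1 µM retinoic acid and 5 µM forskolin, again without (Ctrl) or with NAD+. Retinoic acid and forskolin are thus shared by both differentiation groups. The treatment field of the labels reads untreated for all samples, so the groups follow the sample titles, and the doses follow the methods of the study. The study calls the 3 samples of a group biological repeats, without saying how many mice or cultures they came from. Every SD given below is the spread between these samples. The standard errors (SE) of log2 fold changes come from limma fits, which draw the variance of each gene toward a trend over all genes.

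Neurotransmitter release takes place at the presynaptic terminal, where vesicles filled with transmitter dock at the active zone and fuse with the plasma membrane when calcium enters. Synaptophysin (Syp) is an abundant membrane protein of these vesicles, synaptotagmin 1 (Syt1) is their calcium sensor, and Snap25 is a plasma membrane SNARE that drives fusion. Beta-synuclein (Sncb) is a small presynaptic protein that binds membranes and Nptx1 is a secreted neuronal pentraxin that clusters AMPA receptors at synapses. Gad1 and Gad2 encode the 2 glutamate decarboxylases that make GABA, the main inhibitory transmitter of the adult brain. GAP-43 (Gap43) is a growth cone protein of extending axons that is also found in progenitors and glia, and Thy1 is a surface glycoprotein that is abundant on mature axons. In the gene ontology column of the deposited tables, 7 of the 9 genes carried the term synapse, 5 carried axon, 4 carried presynaptic membrane and 3 carried growth cone.

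Promoter sequences of RefSeq (GRCm38.p6, 250 bases before to 50 bases after the start site, on the strand of the gene) were at hand for 5 of the 9 genes: Gad1, Gad2, Sncb, Syp and Syt1. Those of Gad1 and Gad2 are shown because these genes serve the same reaction and stood on opposite sides of Ctrl under differentiation conditions, and that of Sncb because it stands for the genes that were lower with NAD+ under proliferating conditions. The letters in capitals are matches to the motifs searched on both strands. These were the cAMP response element TGACGTCA, the TATA box TATAAA, the GC box GGGCGG, the nuclear receptor motif AGGTCA, the E-box CAGCTG, the left part of the RE1 element of the repressor REST, TTCAGCACC, and the RE1 core, AGCACC and GGACAGCGC with 2 bases between them, which overlaps that left part and was added after the Gad2 sequence had been read.
Gad1, chr2:70561879-70562178, plus strand: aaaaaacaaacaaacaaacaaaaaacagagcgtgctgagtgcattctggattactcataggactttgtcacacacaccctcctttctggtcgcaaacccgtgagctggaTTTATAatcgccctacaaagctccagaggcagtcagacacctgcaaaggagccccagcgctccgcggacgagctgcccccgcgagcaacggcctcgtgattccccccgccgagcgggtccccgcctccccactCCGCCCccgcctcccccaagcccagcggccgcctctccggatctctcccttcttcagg
Gad2, chr2:22622077-22622376, plus strand: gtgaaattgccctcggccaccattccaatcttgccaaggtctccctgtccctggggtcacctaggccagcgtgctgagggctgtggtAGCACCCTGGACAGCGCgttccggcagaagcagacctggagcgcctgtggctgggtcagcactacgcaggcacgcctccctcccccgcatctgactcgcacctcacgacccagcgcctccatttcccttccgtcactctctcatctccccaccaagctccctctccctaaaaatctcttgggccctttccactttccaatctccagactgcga
Sncb, chr13:54766546-54766845, minus strand: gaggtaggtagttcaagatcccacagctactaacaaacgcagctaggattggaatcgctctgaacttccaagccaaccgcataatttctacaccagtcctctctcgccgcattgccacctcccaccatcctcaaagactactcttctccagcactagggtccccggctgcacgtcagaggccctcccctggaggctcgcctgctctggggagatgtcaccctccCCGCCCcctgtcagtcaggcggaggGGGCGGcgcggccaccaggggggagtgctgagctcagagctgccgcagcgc
Each window spans the 5′ end of a RefSeq transcript; in GENCODE M21 (GRCm38, mm10) Gad1 lies at chr2:70553072-70602014, Gad2 at chr2:22622205-22693874 and Sncb at chr13:54758860-54766595. In Gad1 the capitals mark a TATA box on the opposite strand, which begins 141 bases before the start site, and a GC box on the opposite strand 8 bases before it. In Gad2 they mark an RE1 core that begins 163 bases before the start site. This motif was added after the Gad2 sequence had been read, so its match there was known beforehand. It was held by 5 of 32851 RefSeq promoters of this length (0.0152%). In Sncb the capitals mark 2 GC boxes. At least 1 GC box was present in 35.7% of the promoters and at least 1 TATA box in 13.6%. The Syp promoter also held 2 GC boxes, and 1 of the 2 Syt1 promoters held 1, whereas the other held an E-box and a nuclear receptor motif, each of which was in 16.3% of promoters. None of the 6 promoters held the cAMP response element (1.79% of all) or the left part of RE1 (0.371%). A match describes these letters only and was not tested as a binding site.

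The values are FPKM, which divide the fragments of a gene by its transcript length and by the mapped fragments of the library, so that they can be compared between genes. In the proliferating Ctrl group, Nptx1 (50.3 ± 4.66 FPKM, SD, n = 3) and Gap43 (48.6 ± 3.32) stood above 95.1% and 94.9% of the tested genes, and their samples overlapped. They were followed by Thy1 (5.52 ± 2.94), Sncb (4.01 ± 0.554) and Syp (2.52 ± 0.492), where Thy1 and Sncb overlapped. Gad1 (0.900 ± 0.201), Snap25 (0.740 ± 0.010), Syt1 (0.527 ± 0.0737) and Gad2 (0.270 ± 0.118) had under 1 FPKM on average, and of these neighbours only Gad1 and Snap25 overlapped. Nptx1 and Gap43 led in all 4 groups, and the lowest mean belonged to Gad2 in 3 groups and to Syt1 in the differentiation Ctrl group. The levels listed for proliferating Ctrl lay well above the rounding step of the values, 0.01 FPKM. By its mean, Gad2 with NAD+ under proliferating conditions came nearest to that step (0.03 to 0.14 FPKM). The depth of the samples is unknown.

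**Figure D1:**
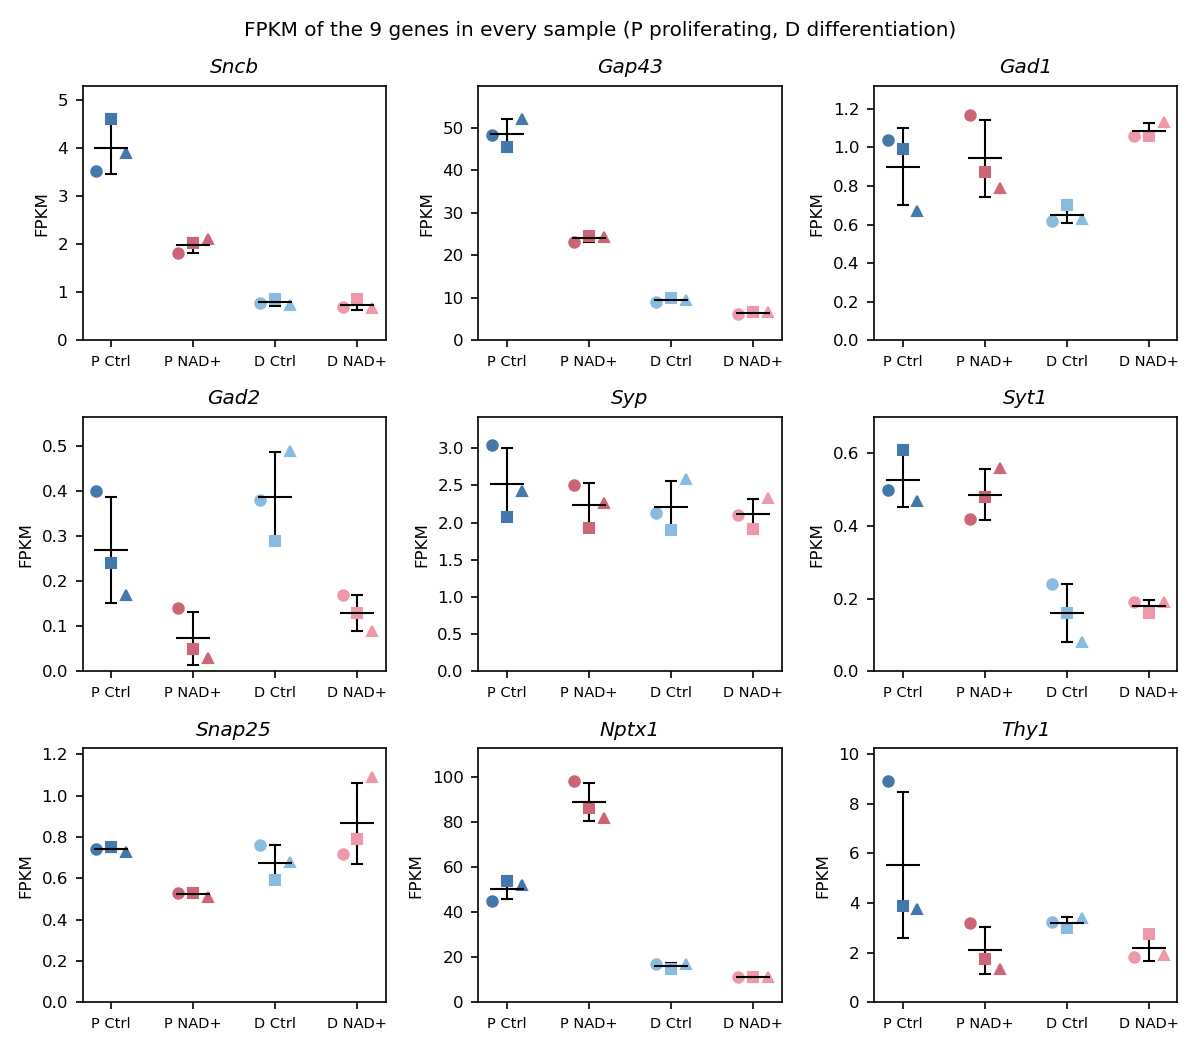
FPKM of each of the 9 genes (y axis, linear and from 0) in the 4 groups of 3 samples (P, proliferating conditions; D, differentiation conditions); circles, squares and triangles are samples 1, 2 and 3, horizontal lines are means and bars are SD. Nptx1 is the gene whose NAD+ samples lie above Ctrl under proliferating conditions (81.75 to 98.07 against 45.05 to 53.95 FPKM) and below it under differentiation conditions (11.17 to 11.44 against 14.76 to 16.92 FPKM).

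The labelled cell type was checked by its markers. The progenitor genes Sox2 (128.61 to 251.88 FPKM), Nes (9 to 96.96) and Fabp7 (324.31 to 2253.74) were present in every sample, while Pax6 was at most 3.27 FPKM. Glial genes were high as well, with Gfap up to 998.61 FPKM and Olig1 up to 1044.23 FPKM. Of the 12 neuronal markers Uchl1 (19.40 to 44.36 FPKM), Map2 (10.56 to 20.59), Tubb3 (8.23 to 14.22), Elavl3 (2.70 to 5.85) and Dcx (1.02 to 4.39) were above 1 FPKM in every sample. Eno2 (0.58 to 1.77) was near that level, and Rbfox3, Stmn2, Nefl, Nefm, Celf4 and Elavl4 stayed at or under 0.69 FPKM in every sample, also under differentiation conditions. The summed level of the 8 interneuron lineage factors was at most 0.76 FPKM, with Dlx5, Sp8 and Gsx2 at 0. The fibroblast markers summed to at most 0.67 FPKM and the microglial markers, most of it Cd68, to at most 7.04. The 2 proliferating samples numbered 1 stood apart in some glial genes but not in others: Aqp4 was 13.68 FPKM in Ctrl 1 against 5.82 and 5.23 in the other Ctrl samples, and 9.95 in NAD+ 1 against 2.42 and 2.82 in the other NAD+ samples, whereas Slc1a3 was 236.86 FPKM in Ctrl 1 against 288.26 and 274.69, and Olig2 305.81 against 342.10 and 353.45. The summed FPKM was 363330 in proliferating Ctrl 1 and 308828 to 349649 in the other 11 samples, and samples of one group correlated across genes at r of 0.955 to 0.976.

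To see whether these genes differed with NAD+ in dividing aNSPCs, the NAD+ group was compared to the Ctrl group under proliferating conditions. In 5 of the 9 genes, Sncb, Gap43, Gad2, Snap25 and Thy1, every NAD+ sample lay under the lowest Ctrl sample, in Nptx1 every NAD+ sample lay above the highest, and Syp, Syt1 and Gad1 overlapped. Of all 18597 genes tested under these conditions, 8.59% were lower and 15.5% higher without overlap; since the genes were chosen from these values, the counts are a description only. By the ratio of the means, 4 of them (Sncb, Gap43, Gad2 and Thy1) were more than 2-fold lower and 0 more than 2-fold higher (4.04% and 3.95% of all genes). Gap43 was 48.37, 45.41 and 52.04 FPKM in Ctrl and 23.12, 24.54 and 24.29 FPKM with NAD+. The NAD+ samples of this growth cone gene lay close together and far under every Ctrl sample, with a 2.03-fold lower mean. The log2 fold change of Gap43, here and below on the scale of FPKM + 0.1, was -1.01 ± 0.0806 (SE).

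Sncb had 3.52, 4.61 and 3.89 FPKM in Ctrl and 1.81, 2.02 and 2.10 FPKM with NAD+. The beta-synuclein gene was thus lower by nearly the same factor as Gap43 (2.03-fold), with a log2 fold change of -0.98 ± 0.145. Thy1 had 8.92, 3.89 and 3.75 FPKM in Ctrl and 3.18, 1.74 and 1.35 FPKM with NAD+. In both groups the sample numbered 1, which was also high in Aqp4, was the highest for Thy1, and the log2 fold change was -1.33 ± 0.421 with all samples, -0.93 without Ctrl 1 and -1.26 without both samples numbered 1. Gad1, Gad2 and Syp were likewise highest in the sample numbered 1 of both groups. The part of glial genes such as Aqp4 in the values of Thy1, Gad1, Gad2 and Syp was not tested.

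For the GABA-producing enzymes, Gad2 had 0.40, 0.24 and 0.17 FPKM in Ctrl and 0.14, 0.05 and 0.03 FPKM with NAD+. Every NAD+ sample of Gad2 lay under every Ctrl sample, but the values are so low that the log2 fold change, -1.10 ± 0.387, ran from -1.89 when 0.01 was added to the FPKM to -0.24 when 1 was added. Gad1 had 1.04, 0.99 and 0.67 FPKM in Ctrl and 1.17, 0.87 and 0.79 FPKM with NAD+. The 2 groups of Gad1 overlapped, with a log2 fold change of 0.07 ± 0.240 and a sign that turned in 2 of 14 alternative settings.

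Among the vesicle and fusion genes, Snap25 had 0.74, 0.75 and 0.73 FPKM in Ctrl and 0.53, 0.53 and 0.51 FPKM with NAD+. The 3 samples of each group of this SNARE gene were nearly alike. Its log2 fold change was -0.43 ± 0.178, where the SE reflects the trend over all genes more than the spread of these samples. Syp had 3.05, 2.08 and 2.42 FPKM in Ctrl and 2.51, 1.93 and 2.27 FPKM with NAD+, a log2 fold change of -0.15 ± 0.183. Syt1 had 0.50, 0.61 and 0.47 FPKM in Ctrl and 0.42, 0.48 and 0.56 FPKM with NAD+, a log2 fold change of -0.10 ± 0.217. For both vesicle genes the difference was smaller than its standard error, and 16.8% of the exon length of Syp is shared with the antisense gene Gm14703, which an unstranded library cannot separate. Nptx1 had 45.05, 53.95 and 51.92 FPKM in Ctrl and 98.07, 86.08 and 81.75 FPKM with NAD+. The pentraxin gene was the only one of the 9 that was higher in every NAD+ sample, by 1.76-fold, with a log2 fold change of 0.82 ± 0.107, or 0.66 without both samples numbered 1. The median log2 fold change of the 9 genes was -0.43, and that of all tested genes 0.07.

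**Figure D2:**
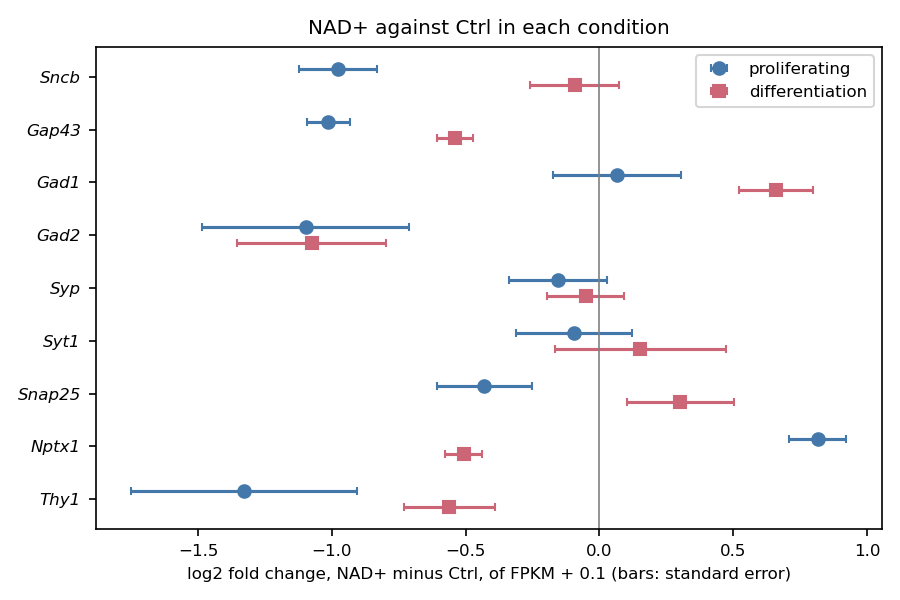
Log2 fold change of NAD+ over Ctrl on the scale of FPKM + 0.1 (x axis) for each of the 9 genes. Circles are proliferating and squares are differentiation conditions. Bars are the standard error from limma and n = 3 per group. Gap43 (-1.01 and -0.54), Gad2 (-1.10 and -1.08) and Thy1 (-1.33 and -0.56) lie below 0 under both conditions, while Nptx1 lies at 0.82 and -0.51.

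Under differentiation conditions, Gap43, Gad2, Nptx1 and Thy1 were lower in all 3 NAD+ samples, Gad1 was higher in all 3, and Sncb, Syp, Syt1 and Snap25 overlapped. Of the 19611 genes tested, 21.1% were lower and 9.68% higher without overlap, and again nothing is read from the counts. Only the mean of Gad2 was more than 2-fold lower and none of the 9 was more than 2-fold higher (5.77% and 3.53% of all genes). Gad2 had 0.38, 0.29 and 0.49 FPKM in Ctrl and 0.17, 0.13 and 0.09 FPKM with NAD+, whereas Gad1 had 0.62, 0.70 and 0.63 FPKM in Ctrl and 1.06, 1.06 and 1.13 FPKM with NAD+. The 2 decarboxylase genes thus lay on opposite sides of Ctrl, with log2 fold changes of -1.08 ± 0.279 for Gad2 and 0.66 ± 0.138 for Gad1. Over the alternative settings the value of Gad2 ran from -1.51 to -0.29 and that of Gad1 from 0.34 to 0.77, and neither turned. The interneuron lineage factors summed to 0.54 to 0.71 FPKM in Ctrl and 0.41 to 0.54 FPKM with NAD+.

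Nptx1 had 16.91, 14.76 and 16.92 FPKM in Ctrl and 11.44, 11.42 and 11.17 FPKM with NAD+. Its difference was thus of the opposite sign to that under proliferating conditions, with a log2 fold change of -0.51 ± 0.0694. Gap43 had 9.08, 10.01 and 9.40 FPKM in Ctrl and 6.18, 6.63 and 6.70 FPKM with NAD+. The groups of Gap43 did not overlap, and the log2 fold change was -0.54 ± 0.0683, nearer to 0 than under proliferating conditions. Thy1 had 3.22, 2.98 and 3.41 FPKM in Ctrl and 1.83, 2.77 and 1.92 FPKM with NAD+. The second NAD+ sample of Thy1 lay just under the lowest Ctrl sample, and the log2 fold change was -0.56 ± 0.168.

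Snap25 had 0.76, 0.59 and 0.68 FPKM in Ctrl and 0.72, 0.79 and 1.09 FPKM with NAD+, so that its groups overlapped at a log2 fold change of 0.30 ± 0.201. Sncb had 0.77, 0.87 and 0.74 FPKM in Ctrl and 0.69, 0.86 and 0.67 FPKM with NAD+. Neither this synuclein (log2 fold change -0.09 ± 0.165) nor the vesicle genes Syp (-0.05 ± 0.144) and Syt1 (0.15 ± 0.320) differed by more than the standard error. The samples of Syp ran from 1.90 to 2.59 FPKM in Ctrl and from 1.92 to 2.33 FPKM with NAD+, and those of Syt1 from 0.08 to 0.24 FPKM and from 0.16 to 0.19 FPKM. The sign of these values turned in some of the alternative settings, in 1 of 13 for Sncb, 4 of 14 for Syp and 1 of 13 for Syt1. The median log2 fold change of the 9 genes was -0.09 and that of all tested genes -0.08.

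The NAD+ effects under the 2 conditions were then set side by side, as differentiation minus proliferating on the log2 scale. The median of this difference over all 17558 genes tested in both was -0.157, and it moved to -0.0135 when the samples were first scaled by the median ratio, so values relative to the median are given as well. For Nptx1 the difference was -1.32 ± 0.128 (-1.17 relative to the median), with samples that did not overlap and lay in opposite directions under the 2 conditions, a pattern that 2.35% of all genes showed. For Sncb the difference was 0.88 ± 0.206 (1.04 relative to the median), for Gap43 0.48 ± 0.0988 (0.63), for Snap25 0.73 ± 0.248 (0.89) and for Gad1 0.59 ± 0.271 (0.75). The differences were 0.77 ± 0.499 for Thy1, 0.25 ± 0.358 for Syt1, 0.10 ± 0.238 for Syp and 0.02 ± 0.467 for Gad2.

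Levels of the genes under differentiation and proliferating conditions come from 2 tables that may have been scaled separately and are therefore described without a test. In Ctrl, 5 of the 9 genes were lower under differentiation conditions in all samples and 4 overlapped, against 35.7% of all genes that were lower and 26.4% that were higher without overlap. The mean of Gap43 was 5.12-fold lower, that of Sncb 5.05-fold, Syt1 3.29-fold, Nptx1 3.11-fold and Thy1 1.72-fold. None of these neuronal genes was higher under differentiation conditions in Ctrl, and Gad1, Gad2, Syp and Snap25 overlapped. With NAD+, Nptx1 was 7.81-fold lower, Gap43 3.69-fold, Syt1 2.70-fold and Sncb 2.67-fold, while Snap25 was 1.66-fold higher and the other 4 genes overlapped (44.0% of all genes lower and 23.2% higher). In bulk RNA, fewer cells that express a gene and less RNA per cell cannot be told apart.

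Over the 12 samples, which share groups and libraries, Sncb and Gap43 went together most closely (r = 0.98 of log2 values), and Snap25 and Nptx1 were the most opposed pair (r = -0.65). Gap43 (r = 0.85), Sncb (0.84) and Thy1 (0.73) followed the mean profile of the 9 genes best, while Gad1 (0.26), Gad2 (0.22) and Snap25 (0.04) hardly followed it. Each of the 9 genes is itself part of that profile, which raises its r. Of 12923 other genes with a mean of at least 1 FPKM, the 5 most like the mean profile over the 12 samples were Cplx1 (r = 0.960), a complexin that clamps vesicle fusion, Dpp6 (0.957), an auxiliary subunit of potassium channels, Syn2 (0.955), a synapsin on the vesicle surface, Hdhd5 (0.954) and Acadm (0.945), a mitochondrial fatty acid dehydrogenase. Cplx1 averaged 11.8 FPKM in proliferating Ctrl, 6.68 with NAD+, and 4.01 and 3.70 under differentiation conditions in Ctrl and with NAD+. These likenesses are descriptions of samples that fall into 4 groups.

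Because the 9 genes could not be tested, 116 other genes of the same compartments were taken as a wider list. They were read from limma fits over all genes, with p-values adjusted by Benjamini-Hochberg over all genes. This list was also chosen with earlier results of these data known, which limits what its p-values and counts can show. Under proliferating conditions 103 of the 116 were tested, and 1 was higher and 0 were lower at an adjusted p under 0.05 by limma (0.0484% and 0.0968% of all genes), with 8 higher and 17 lower at an unadjusted p under 0.05 (9.35% and 6.05% of all genes). By the rule of the study, an unadjusted p under 0.05 and a ratio of the means over 2, 1 gene of the list, Cplx2, was higher and 1 was lower (1.60% and 1.41% of all genes). The 1 gene was Cplx2, a complexin that binds the SNARE complex. It had 21.31, 26.63 and 27.21 FPKM in Ctrl and 51.92, 57.25 and 53.96 FPKM with NAD+, so that every NAD+ sample was above every Ctrl sample. The log2 fold change was 1.12 ± 0.112 (limma, adjusted p = 0.0326), and the call was lost when Ctrl 2, Ctrl 3, NAD+ 1, NAD+ 2 or NAD+ 3 was left out (adjusted p of limma 0.0981 to 0.180). It held in 6 of 15 alternatives and was also lost without the filter on low values (adjusted p of limma 0.0553), without the variance trend (0.0835), with the replicate block (0.124) and without both samples numbered 1 (0.0518). Without Ctrl 1, 1 gene was lower. Cplx1, the paralog of Cplx2, averaged 11.8 and 6.68 FPKM (log2 fold change -0.77 ± 0.223, limma, adjusted p = 0.201).

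Other genes with a low unadjusted p did not pass the adjusted test. Their log2 fold changes were -0.88 for Cend1, which promotes cell cycle exit and neuronal differentiation, -0.53 for the GABA transporter Slc6a11, -0.75 for the vesicle GTPase Rab3b and -0.55 for the semaphorin signalling gene Crmp1, with adjusted p of 0.0583 to 0.0805 by limma. Of the relatives of the 9 genes, Nptx2 averaged 10.4 and 10.5 FPKM, Nptxr 4.80 and 6.59 FPKM and Snap23, the Snap25 relative of non-neuronal cells, 9.72 and 10.2 FPKM in Ctrl and NAD+. Sncg was listed at 0 in all but 2 of the 12 samples, and the vesicular GABA transporter Slc32a1 was at most 0.05 FPKM in every sample. The median log2 fold change of the wider list was -0.06.

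**Figure D3:**
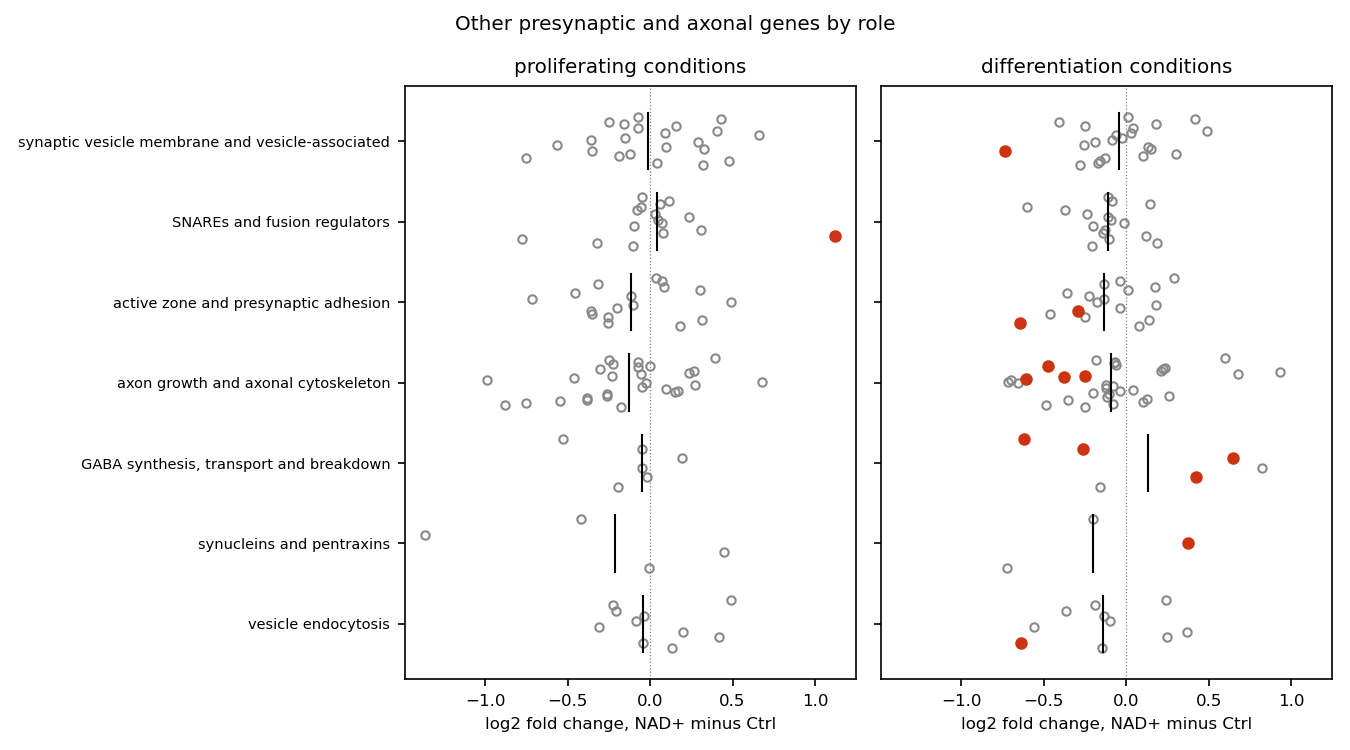
Log2 fold change of NAD+ over Ctrl on the scale of FPKM + 0.1 (x axis) for the tested genes of the wider list, grouped by role (y axis), under proliferating (left, 103 genes) and differentiation conditions (right, 106 genes). Each circle is a gene, filled circles have an adjusted p under 0.05 by limma (1 on the left, 13 on the right) and black lines are the median of a role.

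Under differentiation conditions 106 of the 116 genes were tested, and 3 rose and 10 fell at an adjusted p under 0.05 by limma (2.27% and 4.65% of all genes). At an unadjusted p under 0.05, 10 were higher and 25 lower (7.50% and 16.7% of all genes), and by the rule of the study 0 were higher and 0 lower (1.36% and 2.69%). After median-ratio scaling of the samples the split was 6 and 6, and after quantile normalization 5 and 8. The genes that passed included 4 of the 6 genes of GABA handling. Slc38a1, a glutamine carrier that feeds transmitter synthesis, had 54.54, 55.42 and 57.41 FPKM in Ctrl and 82.80, 87.14 and 92.40 FPKM with NAD+, and Aldh5a1, which oxidises the product of GABA breakdown, averaged 29.1 and 39.0 FPKM. The log2 fold changes were 0.65 ± 0.0545 for Slc38a1 and 0.42 ± 0.0418 for Aldh5a1 (limma, adjusted p = 0.00457 and 0.00620). Slc6a11, a plasma membrane GABA transporter found mainly on astrocytes, fell from 247.47, 241.52 and 277.73 FPKM in Ctrl to 162.06, 160.76 and 174.81 FPKM with NAD+. Its log2 fold change was -0.62 ± 0.0687 (limma, adjusted p = 0.00780).

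On the side of vesicles and active zones, Sv2a, a glycoprotein of synaptic vesicles, fell from 7.98, 8.45 and 7.27 FPKM to 4.59, 4.64 and 4.88 FPKM (log2 fold change -0.73 ± 0.0785, limma, adjusted p = 0.00727). The scaffold gene Cask (-0.65) and the membrane-bending gene Bin1 (-0.64) fell as well (adjusted p of limma 0.0110 and 0.0111), and all 16 tested SNARE and fusion genes missed the adjusted threshold. Of the 32 genes of axon growth and the axonal cytoskeleton, 4 fell and 0 rose: Marcks (-0.61), Robo1 (-0.48), Marcksl1 (-0.38) and Ncam1 (-0.25), with adjusted p of limma from 0.0113 to 0.0344. Marcks, like Gap43 a membrane-bound substrate of protein kinase C, went from a mean of 191 to 125 FPKM. Nptxr, the membrane-anchored pentraxin, rose from 17.85, 18.57 and 18.49 FPKM to 24.35, 24.64 and 22.38 FPKM (log2 fold change 0.38 ± 0.0562, limma, adjusted p = 0.0167), while Nptx1 was lower in these samples and Nptx2 averaged 1.20 and 0.660 FPKM (limma, adjusted p = 0.189). Snap23 averaged 8.49 and 8.42 FPKM. Of the 12 genes of this comparison taken by rule, which leaves out Ncam1, 5 kept an adjusted p under 0.05 in every alternative: Sv2a, Slc38a1, Cask, Slc6a11 and Aldh5a1. Leaving out differentiation Ctrl 1, Ctrl 2, Ctrl 3 or NAD+ 3 lowered the number of falling genes from 10 to 3, 6, 5 and 6.

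A test of whether the effect of NAD+ depended on the condition was possible for 100 genes of the wider list. At an adjusted p under 0.05 by limma, 0 were higher and 2 were lower (0.216% and 0.273% of all genes). At an unadjusted p under 0.05 there were 16. The share of all genes at that threshold was not computed, so nothing is read from this count. Cplx2 had 16.67, 17.13 and 19.03 FPKM in differentiation Ctrl and 18.08, 19.46 and 19.83 FPKM with NAD+, and its difference from the effect under proliferating conditions was -1.0 ± 0.136 (limma, adjusted p = 0.0168). Bin1 had 11.58, 10.72 and 11.55 FPKM in proliferating Ctrl and 10.55, 11.02 and 11.29 FPKM with NAD+, against 12.70, 13.29 and 11.58 FPKM and 8.23, 8.44 and 7.41 FPKM under differentiation conditions. Its difference was -0.59 ± 0.109 (limma, adjusted p = 0.0477) and passed in 6 of 21 alternatives, being lost without any single sample other than proliferating Ctrl 1 or NAD+ 1. Bin1 was also lost without the filter on low values, with either scaling, with the replicate block and without the variance trend. Cplx2 passed in 18 of 21 and was lost without differentiation Ctrl 2 or Ctrl 3 or proliferating NAD+ 3. In this test 1 gene was higher without proliferating Ctrl 1, 3 without proliferating NAD+ 1, and 5 without both, where 4 were lower. Samples that did not overlap and lay in opposite directions, as for Nptx1, were seen in 1 gene of the 100, against 2.35% of all genes. This was Map1b, a microtubule protein of growing axons chosen after its values were seen. It had 1.09, 1.93 and 1.77 FPKM in proliferating Ctrl and 2.67, 2.61 and 2.35 FPKM with NAD+, against 7.03, 8.96 and 6.72 FPKM and 4.30, 5.49 and 3.92 FPKM under differentiation conditions (difference -1.39 ± 0.287, limma, adjusted p = 0.0642).

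Marker genes of cell types, in lists also chosen with earlier results of these data known, were read beside these comparisons. Under proliferating conditions none of the tested markers of the 9 lists passed the adjusted test of limma, though sums of several lists did not overlap between the groups. The summed FPKM of 12 neuronal markers was 60.65 to 66.68 in Ctrl and 74.48 to 78.24 with NAD+, most of it Uchl1 and Map2, with 2 of the 11 tested higher and 0 lower at an unadjusted p under 0.05. The 10 oligodendrocyte lineage markers summed to 1308.38 to 1427.80 FPKM in Ctrl and 1052.63 to 1082.36 with NAD+, and the 10 progenitor markers to 2650.05 to 2898.06 and 1630.69 to 2145.02, most of it Fabp7. At an unadjusted p under 0.05, 4 of the 8 tested oligodendrocyte lineage markers and 6 of the 10 progenitor markers were lower and 0 higher. Over all genes, 6.05% were lower and 9.35% higher at that threshold. The 9 astrocyte markers summed to 1158.03 to 1234.48 FPKM in Ctrl and 946.92 to 1102.86 with NAD+, with 2 lower and 0 higher at an unadjusted p under 0.05. The microglial markers summed to 0.97 to 1.29 FPKM in Ctrl and 3.13 to 7.04 with NAD+. Under differentiation conditions the neuronal markers summed to 56.66 to 65.29 FPKM in Ctrl and 64.25 to 67.20 with NAD+, with 1 of 12 higher at an adjusted p under 0.05 (Uchl1). Over all genes, 2.27% were higher and 4.65% lower at that adjusted threshold. The progenitor markers summed to 782.48 to 871.16 FPKM in Ctrl and 773.18 to 853.33 with NAD+, with 1 higher (Vim) and 4 lower, among them Hes5. The oligodendrocyte lineage markers summed to 570.12 to 586.71 FPKM in Ctrl and 425.10 to 444.13 with NAD+, with 2 lower at an adjusted p under 0.05. The 9 astrocyte markers summed to 1681.15 to 1805.09 and 2047.58 to 2155.38, with 4 higher and 2 lower (Aldh1l1 and Aldoc). Gfap, the largest part of the astrocyte sum, had 545.96 to 642.12 FPKM in Ctrl and 965.04 to 998.61 FPKM with NAD+. The microglial markers summed to 1.71 to 1.97 FPKM in Ctrl and 3.33 to 4.13 with NAD+, and Cd68, a lysosomal protein of phagocytes, was higher (log2 fold change 1.13 ± 0.150, limma, adjusted p = 0.0126). The markers of endothelial cells and pericytes summed to 0.49 to 0.78 FPKM in Ctrl and 1.22 to 1.58 with NAD+, most of it Rgs5 and Kcnj8. Only these 2 of that list were tested, and Kcnj8 was higher at an adjusted p under 0.05. The ependymal markers summed to 28.28 to 32.04 and 26.37 to 31.07. The part of these differences in the values of Gap43, Thy1, Slc6a11 and the other genes above was not tested.

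**Figure D4:**
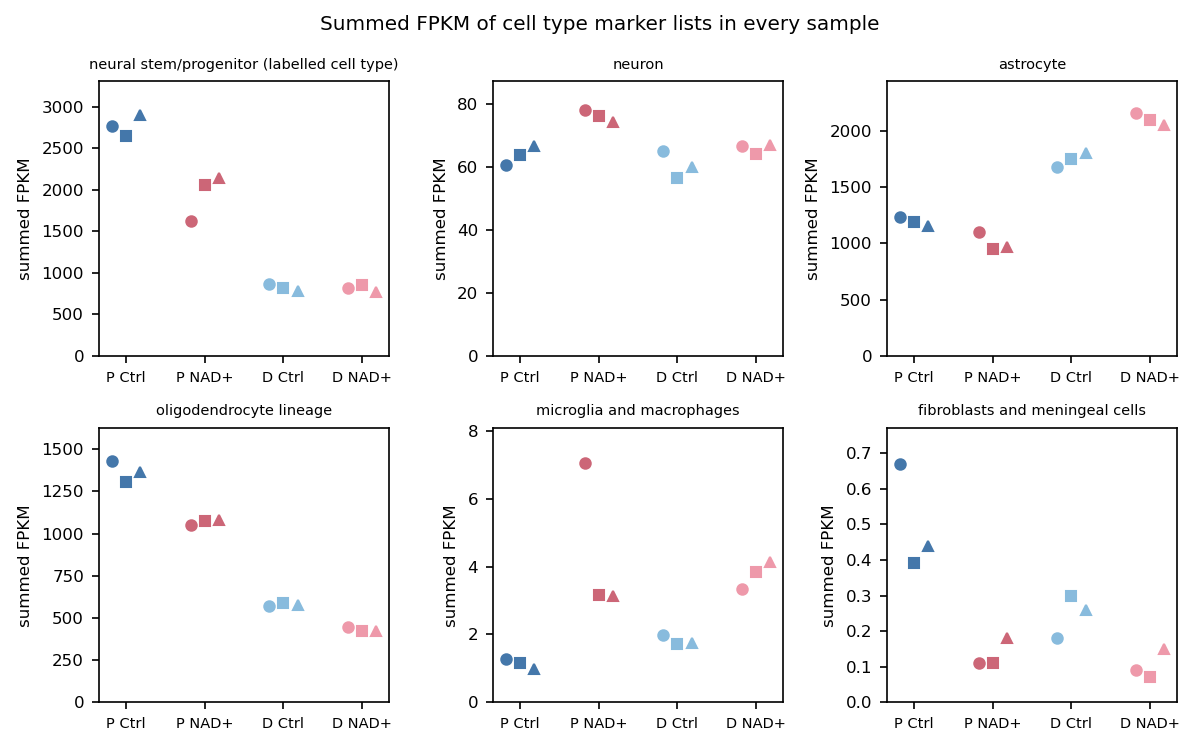
Summed FPKM (y axes, linear and from 0) of 6 lists of cell type markers in the 12 samples; circles, squares and triangles are samples 1, 2 and 3 of each group (P, proliferating conditions; D, differentiation conditions). The oligodendrocyte lineage sum is lower with NAD+ under both conditions (1052.63 to 1082.36 against 1308.38 to 1427.80, and 425.10 to 444.13 against 570.12 to 586.71), and the fibroblast sum is at most 0.67.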

How the data were processed

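RNA-seq of 12 samples was analysed from tables of FPKM. The authors used Hisat2 v2.0.5 with the mm10 genome, kept uniquely mapped reads, counted them with FeatureCounts v2.0.1 and deposited FPKM, rounded to 0.01, in 1 table per condition; the program that made the FPKM is not given in the sources used here. Depth cannot be recovered, so no counting error is given. The library kit does not mark strand. Columns with the authors' own comparisons were set aside, and 0 columns of per-sample values remained unused.

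Here, 0.1 was added to the FPKM and log2 taken, genes averaging 0.1 FPKM or more in the 6 samples entered the fit, and limma 3.58.1 (R 4.3.3) was fitted per condition, two-sided, with a variance trend and Benjamini-Hochberg adjustment over all tested genes. The difference between conditions was a contrast over all 12 samples. The code was tested on simulated data. Alternatives were other added numbers, filters, scalings, a replicate block, no variance trend and leaving out samples; leaving out both proliferating samples numbered 1 was chosen after seeing the data. The 9 genes, the wider list and the marker lists were chosen with earlier results of these data known, and no p-value is given for the 9 genes. Genes of the wider list were named when their adjusted p was under 0.05 and their mean FPKM at least 1, up to 12 per condition by fold change, filled to 6 by unadjusted p, together with relatives of the 9 genes (Sncg, Nptx2, Nptxr, Snap23 and Slc32a1) and the 5 genes of most similar profile; some genes taken by this rule are not reported here. Ncam1, Cplx1 as the paralog of Cplx2, and Map1b were named after their values were seen. Promoters came from RefSeq and exon overlaps from GENCODE M21 (55141 gene IDs matched). Figures were drawn with Python 3.11.15 and matplotlib 3.10.9.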

Additional observations from a re-analysis of the deposited data

Results flagged for a closer look

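The NAD+ effect on Nptx1 differed in direction between the conditions: all NAD+ samples were higher than Ctrl under proliferating conditions and lower under differentiation conditions, with a difference of log2 fold changes of -1.32, which was not tested because the gene was chosen with these values known. The NAD+ effect on Cplx2 differed between the conditions by -1.0 on the log2 scale (limma, adjusted p = 0.0168), a call that held in 18 of 21 alternatives. The NAD+ effect on Bin1 differed between the conditions by -0.59 (limma, adjusted p = 0.0477), or -0.44 relative to the median of all genes. This call held in only 6 of 21 alternatives.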

How the results depend on the processing

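Under proliferating conditions, the 1 wider-list gene that was higher became 0 without the filter, with the replicate block, without the variance trend and without both samples numbered 1, and the 0 that were lower became 2 with a minimum mean of 1 FPKM and 1 with quantile normalization; leaving out single samples gave 0 to 1 for both. Under differentiation conditions, the 3 higher became 6 with a minimum mean of 1 FPKM, 6 with median-ratio scaling and 5 with quantile normalization, and the 10 lower became 6 with median-ratio scaling and 6 without the variance trend; leaving out single samples gave 2 to 3 higher and 3 to 8 lower. For the difference between conditions, the 0 higher became 1 with median-ratio scaling and 5 without both samples numbered 1, and the 2 lower became 1 without the filter, with either scaling, with the block or without the trend, and 4 without both samples numbered 1; leaving out single samples gave 0 to 3 higher and 0 to 3 lower. The cause of these shifts was not tested. Snap23 changed sign under proliferating conditions with quantile normalization (-0.0023) and under differentiation conditions with median-ratio scaling (0.069) and quantile normalization (0.055), its leave-one-out values running from -0.068 to 0.029, and Nptx2 under proliferating conditions without Ctrl 2, Ctrl 3 or NAD+ 1 (leave-one-out values from -0.30 to 0.33) and without both samples numbered 1 (0.040); none of these passed the test. Gap43, Gad2, Nptx1 and Thy1 kept their sign in every setting under both conditions. Same-numbered samples correlated around their group means at 0.0215 to 0.111 under proliferating and 0.0257 to 0.0432 under differentiation conditions. Samples of different numbers correlated at -0.112 to 0.0734 and at -0.0397 to -0.00249. The main fits did not pair the samples, and whether same-numbered samples shared a culture or batch was not tested. With the replicate block the genes called over the whole table went from 27 to 0 under proliferating and from 1357 to 758 under differentiation conditions. Unknown depth limits the genes near or under 1 FPKM most: Gad1, Gad2, Syt1 and Snap25.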
